A study of Mus musculus with 12 samples.

Results

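The 9 genes described here encode proteins of myelin and of the oligodendrocytes that make it: Mbp, Mobp, Cnp, Mag, Mog, Mal, Qk, Cldn11 and Opalin. They were followed through 4 lists of peaks of chimeric reads from adult mouse forebrain, where a chimeric read joins a small RNA held by Argonaute 2 (Ago2) to the RNA it was paired with. All peaks whose deposited annotation named 1 of the 9 symbols were taken. That gave 553 of 250567 peaks, on 9 of the 11356 annotated gene symbols. All 9 symbols had a peak in at least 1 list.

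Each list pools the libraries of 1 group. The excitatory neuron list comes from 3 libraries precipitated with anti-myc for tagged Ago2, and the forebrain replicates 5 to 7 (reps 5-7) and 1 to 4 (reps 1-4) lists from 3 and 4 anti-Ago2 libraries. The background list comes from 2 libraries with control immunoglobulin (IgG). Every sample is C57BL/6 forebrain and carries 1 treatment description: B6Tg(Camk2a-Cre/ERT2) mice crossed with a ROSA26 line that carries CAG-GFP/Eif2c2 (Eif2c2 is an older symbol of Ago2), given 2 mg of tamoxifen on each of 5 days, left for 14 to 21 days and taken at 10 to 12 weeks of age. Camk2a-CreERT2 drives the tag in excitatory neurons, and the sources used here do not say whether the anti-Ago2 and IgG mice also carried it.

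Oligodendrocytes wrap axons in myelin, a stack of membrane held together by a small set of abundant proteins. Their maturation depends on microRNAs (miRNAs), and in mouse miR-219 and miR-338 are known for promoting it. A miRNA guides Ago2 to a target mainly through its seed, bases 2 to 8, most often in the 3' untranslated region (3' UTR) of a messenger RNA. miR-124 and miR-9 are known as miRNAs of neurons and neural progenitors, whereas let-7, miR-26 and miR-29 occur in many brain cells.

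The results below turn on a few miRNAs. Their mature sequences are given 5' to 3' from RefSeq with the seed in capitals. The let-7 members share the seed GAGGUAG and the miR-29 members share AGCACCA, so that their peaks at 1 place can be read together.
let-7a-5p: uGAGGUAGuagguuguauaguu
let-7b-5p: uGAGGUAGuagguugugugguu
let-7c-5p: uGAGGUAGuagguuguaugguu
miR-29a-3p: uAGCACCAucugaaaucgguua
miR-29b-3p: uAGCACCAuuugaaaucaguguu
miR-29c-3p: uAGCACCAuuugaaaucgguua
miR-9-5p: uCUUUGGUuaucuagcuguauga
miR-26a-5p: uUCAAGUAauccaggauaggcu
miR-126a-3p: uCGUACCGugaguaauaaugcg
miR-101a-3p: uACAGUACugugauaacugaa
miR-219a-5p: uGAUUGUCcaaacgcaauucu
miR-338-3p: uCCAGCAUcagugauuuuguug

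In the excitatory neuron list the 9 genes had 0 of 766 peaks, which allows a share of up to 0.392%. They had 11 of 3611 peaks in reps 5-7, a share of 0.305% (Wilson 95% interval 0.170 to 0.545%). They had 542 of 246180 peaks in reps 1-4, a share of 0.22% (0.202 to 0.239%), and 0 of 10 in IgG. Each list is a single pooled observation with no value per library, so intervals and tests cover counting error only and compare lists, not conditions. At the reps 1-4 share the excitatory neuron list would hold 1.69 peaks on these genes, and at the reps 5-7 share 2.33. Whether the genes are bound less often there was not detectable at this depth. In lists from whole tissue, fewer cells of a type and less RNA per cell cannot be told apart.

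Other markers of these cells and of their neighbours set the scale of the excitatory neuron list. Of 8 fixed markers of excitatory neurons it held peaks on Camk2a alone (14 peaks), against 2 of 8 in reps 5-7 and 8 of 8 in reps 1-4. Markers of inhibitory neurons, astrocytes and vascular cells had 0 peaks in it, and 1 of 6 microglial markers had 1 peak. The astrocyte markers had 42 peaks in reps 5-7 and 1011 in reps 1-4. The other myelin and oligodendrocyte genes, a fixed list of 38, were not all at 0 in excitatory neurons: Mbnl2, a splicing regulator, had 2 peaks there.

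**Figure D1:**
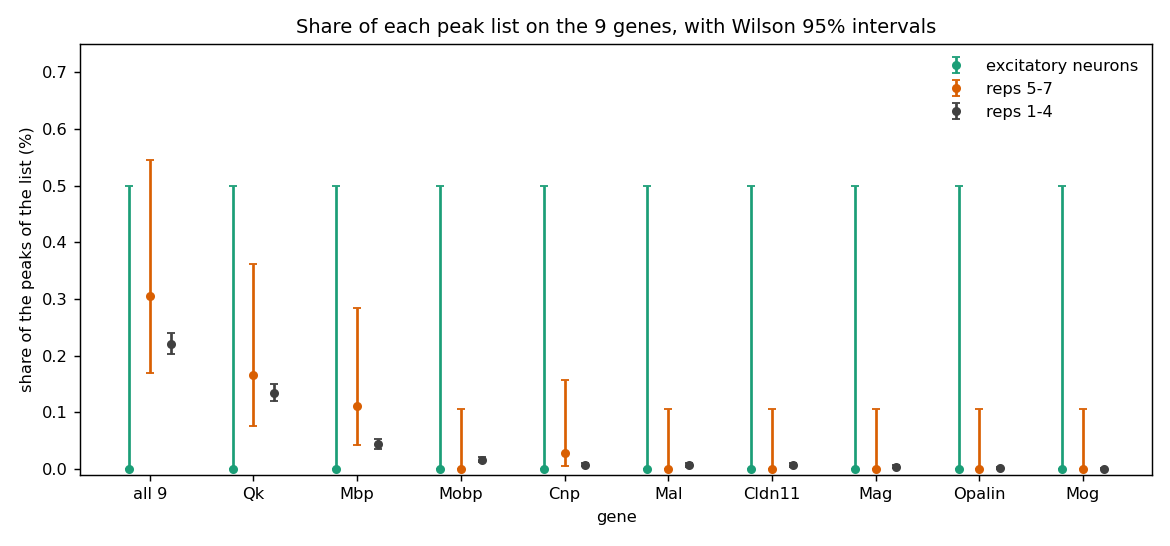
Share of the peaks of each list that lie on all 9 genes together and on each gene (vertical axis, percent), for excitatory neurons, reps 5-7 and reps 1-4; bars are Wilson 95% intervals. All excitatory neuron values are 0 with a Wilson upper bound of 0.499% (the limit of 0.392% in the text is 3 counts of the total), above every reps 1-4 share.

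The peaks were spread unevenly over the genes. In reps 1-4 Qk had 331, Mbp 108, Mobp 40, Cnp 18, Mal 17, Cldn11 16, Mag 8, Opalin 3 and Mog 1. Qk alone made up 61.1% and Qk with Mbp 81.0% of the 542, and the other 7 genes shared 103. The median was 17 peaks for the 9 genes and 5 over the 11352 genes of the list. Per kb of gene, the medians were 0.977 and 0.226 peaks. The 542 peaks came from 75 small RNAs and merged into 368 places, called sites below, where peaks of any small RNA overlap on 1 strand. Of these sites, 79.3% held 1 peak, against 85.3% of all 183883 sites.

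Tests of single genes ran over every gene with at least 10 peaks in the 2 lists compared (two-sided Fisher's exact test, adjusted by Benjamini-Hochberg over all genes tested, with a threshold of 0.05). For excitatory neurons against reps 1-4, 6 of the 9 genes were tested and 0 called, where 0.268% of 4103 genes were called. For reps 5-7 against reps 1-4, 0 of the same 6 were called, against 1.33% of 4132 genes. Adjusted p was 1 for all 6 in both comparisons, and 0 of the 9 reached 10 peaks between excitatory neurons and reps 5-7, where 21.9% of 32 genes were called. Mag, Opalin and Mog were too sparse for any of these tests. At an unadjusted p under 0.05 the 6 genes also gave 0 calls in both comparisons, with no share over all genes given at that threshold. The excitatory neuron comparison could not have called any of the 6 lower at this list size. Each had 0 of 766 peaks, and Qk, with the most reps 1-4 peaks, gave Fisher's exact p = 0.631 unadjusted.

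Mbp came nearest to a difference. It had 4 peaks in reps 5-7, a share of 0.111%, against 108 and 0.0439% in reps 1-4 (Fisher's exact p = 0.080 unadjusted). Qk had 6 peaks and 0.166% in reps 5-7, against 0.134% in reps 1-4. Cnp had 1 peak and 0.0277% in reps 5-7, against 0.00731% in reps 1-4. For all 3 genes the reps 5-7 interval held the reps 1-4 share: it began at 0.0431% for Mbp, at 0.0762% for Qk and at 0.00489% for Cnp. The other 6 genes had 0 peaks in reps 5-7, which allows up to 0.0831% for each.

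The 11 peaks of reps 5-7 lay on Qk, Mbp and Cnp. In Qk they were 2 peaks of miR-9-5p in coding sequence (CDS) with scores of 8 and 3, and 4 in 3' UTR with scores of 4 or 5, of miR-9-5p, miR-124-3p, miR-26a-5p and miR-29a-3p. The score is the authors' whole number per peak; its definition is not stated and its lowest value is 3. In Mbp the 4 peaks were all in 3' UTR, of miR-9-5p (score 5), miR-26a-5p (4), miR-124-3p (3) and miR-125b-5p (3). The Cnp peak was of miR-9-5p, in CDS, with a score of 3.

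Of these 11 peaks, 9 had a reps 1-4 peak of their own small RNA on them, overlapping by 1 base or more, a share of 81.8% (52.3 to 94.9%), beside 87.5% of all reps 5-7 peaks. The Mbp miR-125b-5p peak met only peaks of other small RNAs in reps 1-4, and 1 Qk miR-9-5p peak met none. Where they recurred, the reps 1-4 scores were 18 to 270, against a list median of 4. Scores under the recurring peaks of all genes were not compared, so this does not set the 9 genes apart. The highest were 270 for the Qk CDS peak of miR-9-5p, 159 for Mbp with miR-124-3p, 120 for Qk with miR-124-3p, 110 for Mbp with miR-26a-5p and 99 for Mbp with miR-9-5p. None of the 553 peaks overlapped an IgG peak. The IgG list held 10 peaks on 3 gene symbols, none of them among the 9, so an overlap was hardly possible.

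Where the peaks lay in the transcript differed from gene to gene. In reps 1-4, 19.7% of the peaks of the other genes lay in 3' UTR, 23.9% in CDS and 50.4% in introns. Each gene's share was tested against the pooled peaks of all other genes, within the list and over 4099 genes. The median intron share of the genes tested was 19.4%, so a typical gene lay well below the pooled 50.4%. The 3' UTR share was called higher for Mobp, Mbp and Qk, where 31.9% of all genes were called higher. The CDS share was called higher for Cnp, Mal, Cldn11 and Mbp, where 33.9% of all genes were, and lower for Mobp and Qk, where 15.4% were. The intron share was called lower for Mbp, Mobp, Cnp, Mal and Cldn11, where 57.6% were. With shares of called genes this large, a call alone does not set these genes apart.

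**Figure D2:**
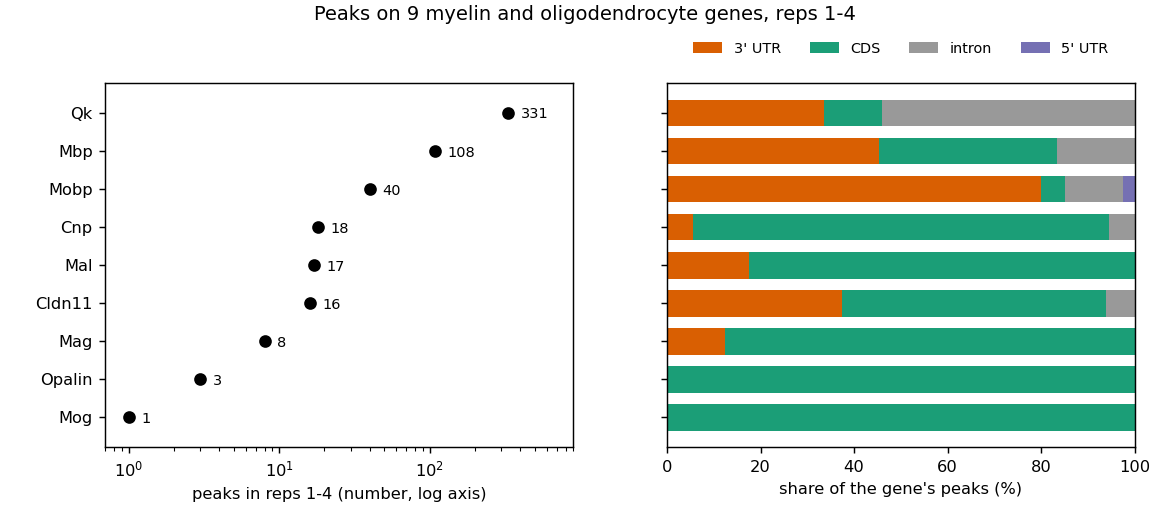
Left, number of reps 1-4 peaks on each of the 9 genes (log axis). Right, percent of each gene's peaks in 3' UTR, CDS, intron and 5' UTR; Mobp is 80.0% 3' UTR, Cnp 88.9% CDS and Qk 54.1% intron.

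Mbp encodes myelin basic protein, which holds the inner faces of the compact myelin membrane together. Its 108 peaks came from 37 small RNAs at 50 sites, with 49 in 3' UTR, 41 in CDS and 18 in intron. The 3' UTR share was 45.4% (36.3 to 54.8%), 25.6 points above the other genes (Fisher's exact test, adjusted p = 1.50e-08). The CDS share was 38.0%, 14.0 points above (exact test, adjusted p = 0.00417), but after overlapping peaks were merged into sites the difference was -0.0645 points (exact test, adjusted p = 1). Among CDS and UTR peaks alone the 3' UTR difference was 10.3 points (exact test, adjusted p = 0.101).

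The Mbp peaks fell in separate blocks of the gene. From an upstream start the Mbp locus also makes the golli transcripts, known in neurons and immune cells as well as in oligodendrocytes, and the annotation holds 2 separate 3' UTR blocks. The upstream block, chr18:82554770-82558703, held 22 peaks with a summed score of 174, 12.4% of the gene's score. The block at the gene's end, chr18:82584113-82585626, held 27 peaks with a summed score of 836, or 59.6%. The 5 highest Mbp peaks lay in the end block: miR-124-3p with scores of 159, 138 and 110, miR-26a-5p with 110 and miR-9-5p with 99. The highest of these ranked 103 among 45945 3' UTR peaks of the list. The 4 reps 5-7 peaks lay in the same end block, and none in the upstream block.

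The Mbp coding peaks were stacked. A site of 106 bases at chr18:82554590-82554695 held 15 peaks of 14 small RNAs with 13 seeds among them, the most of any site on the 9 genes, with a summed score of 127. miR-124-3p gave 1 of the 41 Mbp CDS peaks (2.44%), against 16 of 49 in its 3' UTR (32.7%) and 6 of 18 in its introns. Over all genes miR-124-3p gave 19.7% of CDS and 22.7% of 3' UTR peaks.

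let-7 was the most frequent seed family on Mbp. It had 27 of the 108 peaks (25%), ahead of miR-124-3p with 23, where the family's share of the list gives 9.51. let-7b-5p had 6 peaks where 1.05 were expected, a ratio of 5.72 (2.65 to 11.9), and let-7a-5p had 6 where 1.72 were expected. The 27 peaks lay at 8 sites, and 18 of them at 3 places on the edges of annotated exons. At the first, 6 let-7 members overlapped, and 6 of the 8 peaks there ended on the last base of the exon. At the second, 7 let-7 members overlapped, and 5 of the 10 peaks had a deposited start 1 base before the annotated exon and ran into it. At the third, 5 let-7 members had a common start, likewise 1 base before the annotated coding exon. The 8 peaks at the first and the 10 at the second edge also held 1 peak each of miR-127-5p and miR-219a-2-3p. All 8 small RNAs at the first edge thus had a peak at the second as well. Whether peaks on different exons came from the same reads was not tested. The let-7 counts and ratios on Mbp may therefore count the same reads more than once.

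Deposited starts at exon edges mostly lay 1 base outside the exon over the whole list, so the intron base itself is uncertain. In reps 1-4, 4280 peaks had a start coordinate 1 base below an exon that borders an annotated intron, against 116 on its lowest base. By contrast, 3011 ended on an exon's highest base, against 5 a base beyond it. The edge peaks also touch the intron count. Of the 18 Mbp peaks annotated as intron, 7 (38.9%) shared a single base with the annotated intron and otherwise lay in exon. Over all genes this held for 3.19% of 117113 intron peaks, and for 3 of 179 in Qk. With peak starts read 1 base later, 0 of the 7 Mbp peaks would touch the intron. Leaving such peaks out changed no call of the 9 genes' region shares.

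Qk encodes quaking, an RNA-binding protein that is needed for myelination, binds Mbp messenger RNA and is also made in astrocytes. It had the most peaks of the 9 and ranked 77 among all genes of reps 1-4. Its 331 peaks, 2.93 per kb of gene, came from 58 small RNAs at 245 sites. There were 111 in 3' UTR, 41 in CDS and 179 in intron. The 3' UTR share of 33.5% was 13.8 points above the other genes (Fisher's exact test, adjusted p = 3.66e-08) and the CDS share of 12.4% was 11.6 points below them (exact test, adjusted p = 1.27e-06). The intron share of 54.1% was not called against the pooled peaks of the other genes (exact test, adjusted p = 0.222). It was above the median of 19.4% over the genes tested. Among CDS and UTR peaks alone, 73.0% were in 3' UTR, against 44.2% for the rest (exact test, adjusted p = 4.52e-11). Of 3095 genes with at least 10 such peaks, 24.1% were called higher and 23% lower in this comparison.

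The intron peaks of Qk were scattered and scored lower than its exon peaks, as over all genes. They had a median score of 4 and a highest of 21, against medians of 6 for both CDS and 3' UTR with highest scores of 270 and 120. Over all genes the medians were 3 in intron and 5 in both CDS and 3' UTR. They ran along the gene between 1.03 and 109 kb from its start. miR-124-3p gave 62 of the 179 intron peaks (34.6%) and 21 of the 111 in 3' UTR (18.9%). The corresponding shares over all genes were 37.7% and 22.7%.

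The highest peak on any of the 9 genes was a miR-9-5p peak in Qk CDS at chr17:10216310-10216312, minus strand, with a score of 270. It ranked 40 among 55664 CDS peaks of the list. The 12 Qk peaks that lay wholly within 50 bases of it spanned 71 bases, chr17:10216274-10216344, and summed to 588, 20.8% of the gene's score. A miR-16-5p peak with a score of 3 reached partly into this window and is not counted. Among them were miR-9-5p with scores of 270 and 18, miR-124-3p with 147 and 92, and 4 let-7 members. The highest reps 5-7 peak on the 9 genes, miR-9-5p with a score of 8, lay over it, and a second reps 5-7 peak of miR-9-5p lay in the same 71 bases.

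The proteins made from Qk differ at their ends through alternative last exons, and 2 blocks of its 3' UTR carried peaks. The longer block, chr17:10210180-10215430, held 85 peaks and 31.0% of the gene's score, and the shorter, chr17:10206472-10209614, held 26 peaks and 10.7%. By density these were 16.2 and 8.27 peaks per kb. miR-9-5p had 50 Qk peaks where its share of the list gives 35.4, a ratio of 1.41 (1.09 to 1.81). miR-101a-3p had 7 where 2.13 were expected (ratio 3.29, 1.60 to 6.69), miR-126a-3p 7 where 2.67 were (2.62, 1.27 to 5.32) and miR-9-3p 13 where 6.05 were (2.15, 1.26 to 3.61). Among peaks at or above the list's median score, the miR-126a-3p ratio was 1.36 on 2 peaks. At the edges of separate coding exons, chr17:10217801-10217803 and chr17:10238893-10238927, miR-126a-3p lay beside miR-99a-5p. It was not tested whether these peaks share reads. These ratios are descriptions with counting intervals only.

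**Figure D3:**
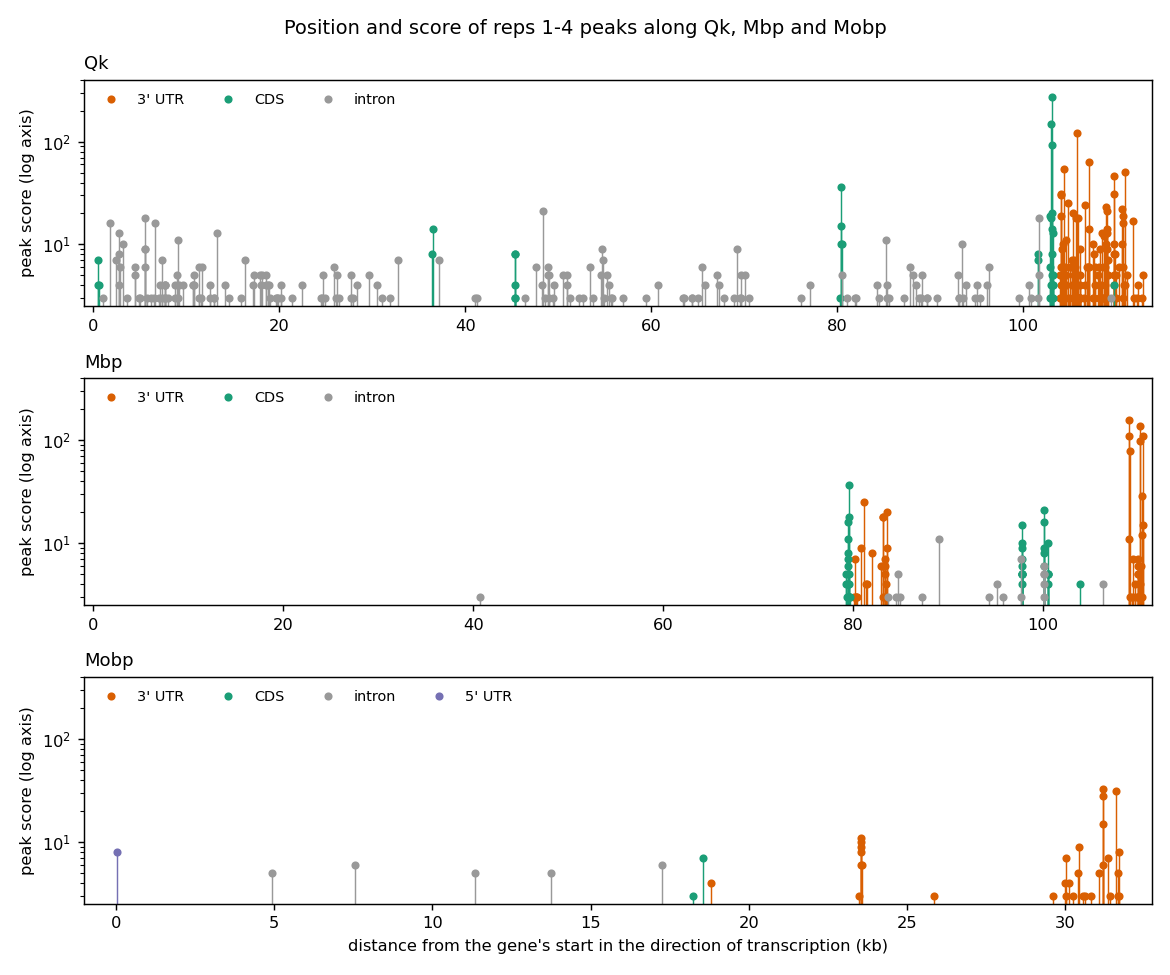
Reps 1-4 peaks along Qk, Mbp and Mobp. The horizontal axis is the distance from the gene's start in kb, the vertical axis the peak score (log axis), and colours mark the annotated region. Qk intron peaks are low along the whole gene with a highest score of 21, while the CDS peak of 270 and the 3' UTR peaks crowd its 3' end.

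Mobp encodes a small basic protein of compact myelin. Its 40 peaks, 1.26 per kb of gene, came from 17 small RNAs at 28 sites, and 32 of them lay in 3' UTR. That share of 80.0% (65.2 to 89.5%) was 60.3 points above the other genes (Fisher's exact test, adjusted p = 8.78e-15). Among CDS and UTR peaks it was 91.4% (exact test, adjusted p = 1.62e-07). The CDS share of 5.00% was 18.9 points below the other genes (exact test, adjusted p = 0.00711), and with peaks merged into sites 12.9 points below (exact test, adjusted p = 0.178). All 5 intron peaks and the 5' UTR peak were of miR-124-3p, against 2 of the 32 in 3' UTR (6.25%).

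The Mobp 3' UTR peaks held stacks of miRNAs that share a seed. At chr9:120173262-120173286, let-7a-5p, let-7b-5p, let-7c-5p, let-7d-5p and let-7f-5p overlapped, with scores of 6 to 11 and no other seed. At chr9:120180912-120180933, the miR-29 members a, b and c had scores of 33, 28 and 15, beside miR-125b-5p with 6. The miR-29a-3p peak was the highest on Mobp and ranked 1593 among 3' UTR peaks of the list. miR-26a-5p followed with a score of 31. The let-7 family had 8 of the 40 peaks (20%), where 3.52 were expected.

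Mobp was also the gene of the 9 with the most peaks of miR-219a-5p. It had 3 where its share of the list gives 0.109, with scores of 7, 7 and 5 at 3 separate 3' UTR sites. Across reps 1-4, miR-219a-5p had 671 peaks on 441 genes, and 17 genes had more than Mobp, led by Gm42418, Kcnip4 and Pcdh9 with 9 each. Another 25 genes had exactly 3, Mobp among them.

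A single target stretch could be read from the reference tables, because only the 5' UTR peak of Mobp lies inside the promoter window they hold. It was a peak of miR-124-3p with a score of 8 at chr9:120149774-120149776, plus strand, on GRCm38, the build also called mm10. The stretch of 30 bases around it, chr9:120149761-120149790 from RefSeq, is given 5' to 3' with the bases of the peak in capitals.
Mobp 5' UTR stretch: atccacaggaaccTTTcacaacagccatta

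Mal and Cldn11 encode membrane proteins of myelin, a proteolipid and the tight junction claudin. Mal had 17 peaks at 9 sites, 14 of them in CDS. That CDS share of 82.4% (59.0 to 93.8%) was 58.4 points above the other genes (Fisher's exact test, adjusted p = 3.75e-06), and 0 of the 17 were in introns. Among CDS and UTR peaks alone, its 3' UTR share was 17.6%, against 44.2% for the rest (exact test, adjusted p = 0.0577), so the CDS call was lost there (exact test, adjusted p = 0.0543). The highest peak was miR-124-3p with a score of 48 in CDS, over which let-7a-5p, let-7c-5p and let-7f-5p lay with scores of 5 and 6. miR-126a-3p, known from endothelial cells, had 3 Mal peaks where 0.137 were expected, with scores of 33, 3 and 3. A peak with 3, at chr2:127638713-127638714, lay on the edge of a coding exon. It was not tested whether it shares reads with the other Mal peaks of miR-126a-3p. The vascular markers had 60 peaks in reps 1-4, and their part in the Mal peaks was not tested.

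Cldn11 had 16 peaks at 13 sites: 9 in CDS, 6 in 3' UTR and 1 in intron. Its highest score was 8, shared by miR-16-5p and miR-15a-5p at 1 CDS place and by 2 peaks of miR-124-3p elsewhere. miR-16-5p and miR-15a-5p have the same seed, AGCAGCA. miR-124-3p had 6 of the 16 peaks where 4.69 were expected. The CDS share of 56.2% was 32.3 points above the other genes (exact test, adjusted p = 0.0137). Its 3' UTR share of 37.5% was 17.7 points above the other genes (exact test, adjusted p = 0.177), and with peaks merged into sites 29.4 points above (exact test, adjusted p = 0.0347). The CDS call was lost among CDS and UTR peaks alone (6.46 points, exact test, adjusted p = 0.874) and with peaks merged into sites (26.1 points, exact test, adjusted p = 0.0679).

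Cnp and Mag encode proteins of non-compact myelin and of the contact with the axon. Cnp is a cyclic nucleotide phosphodiesterase that keeps cytoplasmic channels in myelin open, and Mag is an adhesion protein that faces the axon. Cnp had 18 peaks at 12 sites, 16 of them in CDS. The CDS share of 88.9% (67.2 to 96.9%) was 65.0 points above the other genes (Fisher's exact test, adjusted p = 8.76e-08). Among CDS and UTR peaks its 3' UTR share was 5.88%, below the 44.2% of the rest (exact test, adjusted p = 0.00356). miR-9-5p led Cnp with 5 peaks where 1.92 were expected, a ratio of 2.60 (1.17 to 4.76), and gave its highest scores, 28, 16 and 14. The peak with 28 was the one met by the reps 5-7 peak. The Cnp span also held 4 peaks of Dnajc7 on the opposite strand, which are not counted here.

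Mag had 8 peaks, 7 in CDS and 1 in 3' UTR, with scores of 3 to 12. miR-124-3p gave 4 of them, including the highest. The remaining 4 were single peaks of miR-29a-3p, miR-31-5p, miR-125b-5p and miR-138-5p, each at the minimum score of 3.

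Mog and Opalin, proteins of the oligodendrocyte surface, were nearly empty. Mog, found on the outermost myelin, had 1 peak, of miR-124-3p with a score of 4 in CDS. Opalin had 3, all in CDS: miR-219a-5p with a score of 4 and miR-30a-5p and miR-9-5p with 3 each.

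Over the 9 genes together, the 5 most frequent miRNAs came in the same order as in the list. miR-124-3p led with 140 peaks (25.8%), against 29.3% of the whole list, and had a peak on 8 of the 9 genes, all but Opalin. miR-9-5p had 75 (13.8% and 10.7%), miR-26a-5p 42, miR-128-3p 25 and miR-125b-5p 18. A list of 12 miRNAs known from neurons, miR-124-3p and miR-9-5p among them, had 278 of the 542 peaks, 51.3% (47.1 to 55.5%), beside 51.7% of the whole list. The let-7 family had 62 peaks, 11.4% against 8.81% of the list, on Mbp, Qk, Mobp and Mal only among the 9. The miR-29 family had 27, or 4.98%, against 7.94% of the list. Without Qk, let-7 had 38 of 211 peaks (18.0%), at 13 sites, the Mbp exon edges among them.

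**Figure D4:**
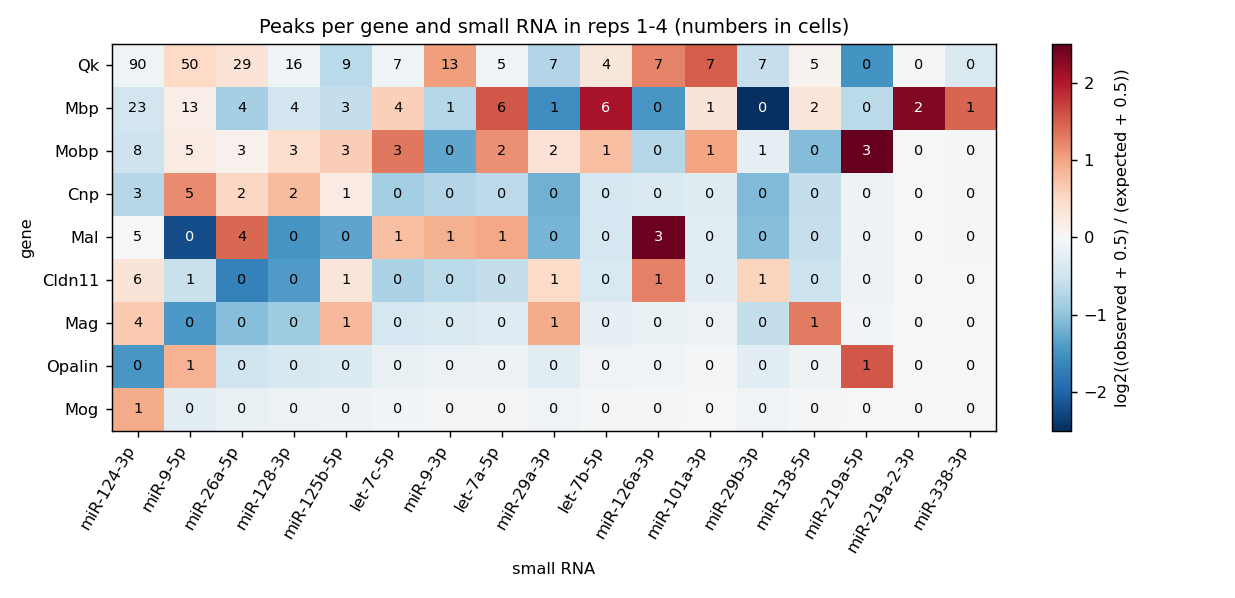
Numbers in cells are reps 1-4 peaks of each gene (rows) and small RNA (columns). Colour is log2 of observed over expected peaks, with 0.5 added to both and the expected number from the gene's peaks and the small RNA's share of the list; deep red marks Mbp with let-7b-5p and miR-219a-2-3p, Mobp with miR-219a-5p and Mal with miR-126a-3p.

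The miRNAs known for oligodendrocytes, those of the miR-219 and miR-338 families, had 7 of the 542 peaks. That is 1.29%, against 0.317% of the whole list, and 3.32% when Qk, which had 0, is left out. Besides the Mobp and Opalin peaks of miR-219a-5p, they were 2 of miR-219a-2-3p and 1 of miR-338-3p on Mbp. The 2 Mbp peaks were 2 of only 6 that miR-219a-2-3p had in the list, and both lay on the exon edges where let-7 was stacked. As for let-7 there, it was not tested whether these 2 came from the same reads. The 7 peaks may therefore not all be separate. The miR-338-3p peak lay in the Mbp site of 15 peaks. In reps 5-7 these miRNAs had 15 peaks, 0 of them on the 9 genes, and in excitatory neurons they had 0 peaks.

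Sites with several peaks were more often of mixed seeds than of 1. Among the 368 sites, 76 held 2 or more peaks, and 7 of those held peaks of a single seed alone. Sites of 5 or more peaks numbered 12, or 3.26%, against 1.81% of all sites. Of these 12, 6 lay on Mbp, 5 on Qk and 1 on Mobp. let-7 filled all 5 peaks of the Mobp site and of 1 Mbp site, and 6 of 7 in a Qk 3' UTR site. The miR-29 family filled 3 of 5 peaks at 1 Qk site in 3' UTR and at 1 in intron.

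**Figure D5:**
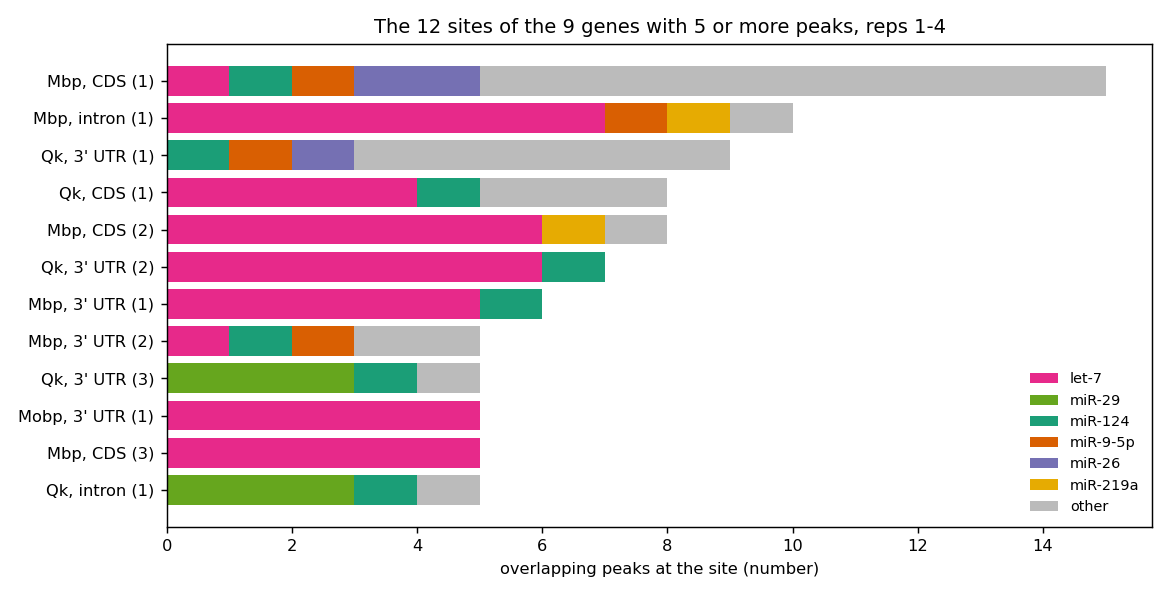
Number of overlapping reps 1-4 peaks (horizontal axis) at each of the 12 sites with 5 or more, named by gene and by the annotated region of the first peak; colours give the miRNA family. let-7 fills most of 6 sites, on Mbp, Qk and Mobp, while the largest site, in Mbp CDS, holds 10 peaks of miRNAs outside the named families.

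The other 38 myelin and oligodendrocyte genes gave a like picture in reps 5-7 and reps 1-4, but not in excitatory neurons. In excitatory neurons 2 of the 38 had a peak (6 peaks, 0.783%), in reps 5-7 5 had (13 peaks, 0.360%) and in reps 1-4 31 had (528 peaks, 0.214%). Among them, in reps 1-4, Mbnl2 had 68 peaks, Enpp2 52, Nfasc 50 and Omg 23. Of the 12 that could be tested against reps 1-4, 0 were called in excitatory neurons and 0 in reps 5-7. At an unadjusted p under 0.05 there were 2 in each. The share of all tested genes at that threshold is not given here, so these 2 show no excess. The regulators Sox10 and Olig2 had 0 peaks in every list.

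By region, 3 of the 12 testable genes among the 38 were called higher in 3' UTR, 6 higher in CDS and 8 lower in introns. The 6 testable genes of the 9 had 3, 4 and 5 such calls, and 2 called lower in CDS. The median CDS share was 47.1% for the 6 genes, 48.5% for those 12 and 30.8% over all genes tested. For introns the medians were 9.38%, 17.9% and 19.4%.

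Across the 50 most frequent small RNAs of the list, the genes whose profile was most like that of the 9 together were Ccser1, Dcc, Phip, Dmd and Mlec. Their Pearson correlations of 0.33 to 0.39, among 1503 genes with at least 30 peaks, were weak, with a median of 0.00 over all these genes. The profiles share the list and its depth.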

How the data were processed

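The authors deposited 4 annotated peak lists, called over pooled libraries on mm10, per the submitters' processing notes, with at least 3 reads and 2 libraries per peak, per the file headers of the calling summaries. For aligner and peak caller, the sources used here name none. The score column holds the authors' deposited whole number per peak, with no definition or scaling stated. Depth was 61 to 138 M reads per sample, per the labels' protocols, with no value per library.

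The 9 genes and all lists were chosen with earlier results of these data known. Peaks were counted per gene, small RNA and region. Counts of genes with at least 10 peaks were compared with two-sided Fisher's exact tests, adjusted by Benjamini-Hochberg over all genes (SciPy 1.17.1, Python 3.11.15, pandas 2.3.3), tested on simulated data. Shares have Wilson 95% intervals, and a count of 0 allows 3 counts. Reads carry no molecular identifiers, so these cover counting error only. Sites merge peaks overlapping by at least 1 base. Expected pairs are gene peaks times the small RNA's share. RefSeq held mature sequences for 65 of 75 small RNAs. Gene spans are RefSeq's, on GRCm38. Named were the 9 genes, per gene the 3 small RNAs with most peaks and the highest peak, all other-list peaks, all miR-219 and miR-338 peaks, and up to 10 pairs of at least 5 peaks; further peaks, sites and the Qk stretch were picked after their values were seen. Values of 1 other myelin gene are not reported here.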

Additional observations from a re-analysis of the deposited data

How the results depend on the processing

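No paired analysis was possible because peaks were called over pooled libraries, so no value carries a replicate number. Libraries could not be left out for the same reason. Matches of the seed under peaks were not run, since no genome was used here. Of 79 list shares of single genes recomputed, 77 kept their direction and stayed uncalled. The other two reversed with lists equal in number, to -0.0554 points for Mbp and -0.0277 for Qk (reps 5-7 minus reps 1-4).
Of 69 region shares of single genes, 58 kept direction and call. 2 became called, 5 were lost and 4 reversed. The Cldn11 3' UTR difference, 17.7 points, became called with merged sites (29.4), and was -4.19 points among CDS and UTR peaks and -4.92 among peaks that scored the median or more. The Mbp CDS difference was -7.99 points among CDS and UTR peaks and -0.0645 after merging into sites. Leaving out intron peaks with 1 intron base and the CDS and UTR peaks for regions were chosen after seeing the data. The causes were not tested.
The count of all genes called between excitatory neurons and reps 5-7, 7 in all, was 1 at or above the median score, 1 with sites, 1 with a minimum of 5 peaks, 4 with equal lists, and 0 with CDS and UTR peaks alone or without rRNA peaks. Against reps 1-4 the count for excitatory neurons, 11, was 3 with equal lists and 4 with CDS and UTR peaks alone. For reps 5-7 it was 55, and 21, 3 and 0 at or above the median score, with equal lists and with CDS and UTR peaks alone. Region calls in either direction numbered 1950 for 3' UTR, 2022 for CDS and 2999 for intron, of 4099 genes tested. At or above the median score they numbered 1299, 1334 and 1995, of 2871 genes tested. With at least 20 peaks per gene the intron calls numbered 1803, of 2292 genes tested.
The summed share of the 9 genes in reps 5-7 was 0.148% by score, 0.138% without Qk and 0.462% among CDS and UTR peaks. In reps 1-4 it was 0.242% at or above the median score, 0.325% among CDS and UTR peaks and 0.0857% without Qk. With a reciprocal overlap of 50%, 27.3% of the reps 5-7 peaks recurred.
Depth limits the excitatory neuron and reps 5-7 lists: a gene with 0 peaks there may have a share of up to 0.392% and 0.0831%.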
